A study of Homo sapiens with 11 samples.

Results

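H3K27ac peaks of Ishikawa cells treated with estradiol were compared with those of Ishikawa cells treated with dexamethasone. Both deposited peak lists were taken whole, 23888 peaks with estradiol and 15192 with dexamethasone, or 39080 of the 90458 peaks in the 8 lists analysed. Peaks that overlapped by at least 1 bp were joined into 26447 regions. Of these, 14571 held peaks of the estradiol list alone (55.1%, 95% interval 54.5 to 55.7). A further 3283 held peaks of the dexamethasone list alone (12.4%, 12.0 to 12.8), and 8593 held peaks of both (32.5%, 31.9 to 33.1). They are called estradiol-only, dexamethasone-only and shared regions here. Since these regions make up the whole comparison, 55.1% and 12.4% are also the background shares of the single-hormone calls.

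The study mapped chromatin by ChIP-seq in Ishikawa, a cell line from a human endometrial adenocarcinoma, kept in phenol red-free medium with charcoal-stripped serum. For H3K27ac the groups were 10 nM estradiol for 8 h, 100 nM dexamethasone for 8 h, both hormones at those doses for 8 h (the combination) and DMSO vehicle for 8 h. The estrogen receptor (ER) was mapped with 10 nM estradiol and the glucocorticoid receptor (GR) with 100 nM dexamethasone, each for 1 h, and both receptors also with the combination for 1 h. Times follow each sample's treatment label, because the general protocol text gives 1 h for all of them, and receptor binding at 8 h was not measured. Every group was 1 library of 1 cell line, so no spread between replicates can be given and no comparison carries a test. The 95% intervals are exact Clopper-Pearson intervals over peaks or regions and cover counting error only. Markers of the cell line were not read from the lists, since no annotation in the build of the files (hg19) was used here. A mark carried by fewer cells and less mark per cell cannot be told apart in such bulk samples.

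Acetylation of histone H3 at lysine 27 is placed by coactivators such as p300 and CBP at active promoters and enhancers. Estradiol is the natural ligand of ER, which binds estrogen response elements and drives growth of the endometrial epithelium. Dexamethasone is a synthetic glucocorticoid whose receptor moves to the nucleus on binding it and occupies glucocorticoid response elements. Both receptors recruit acetyltransferases, and glucocorticoids are known to oppose part of the estrogen response in the uterus.

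The dexamethasone H3K27ac library stood apart from the others in duplication and in the peaks it shared. It had 33% duplicate tags, against 19% with estradiol, 22% with the combination and 18% with vehicle. In depth it was close to the combination library, with 9034395 usable tags, against 10852521 with estradiol, 9657258 with the combination and 18508574 with vehicle. The combination list from that similar depth held 20873 peaks. The dexamethasone list covered 12390 kb of the genome, the estradiol list 24171 kb and the combination list 20258 kb. The dexamethasone list held 71.2% of the strongest 25% of estradiol peaks, whereas the vehicle list held 98.3% of them and the combination list 99.3%. In the other direction, the estradiol list held 96.3% of the strongest 25% of dexamethasone peaks, the vehicle list 95.6% and the combination list 99.7%. Of the 5972 estradiol peaks in this strongest 25%, 1719 were unmatched in the dexamethasone list, 100 in the vehicle list and 40 in the combination list. Most of the 1719, but not necessarily all, were thus also called with vehicle and with the combination. The part of depth, duplication and list length in the results below was not tested.

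Seen peak by peak, the dexamethasone list was largely contained in the estradiol list. Of the 23888 estradiol peaks, 9317 overlapped a dexamethasone peak (39.0%, 38.4 to 39.6). Of the 15192 dexamethasone peaks, 11909 overlapped an estradiol peak (78.4%, 77.7 to 79.0). Strength, ranked within each list by the authors' −log10 q, went with overlap in both. For estradiol peaks the matched share was 71.2% in the strongest 25% and then 35.6%, 26.1% and 23.04% in the following steps of 25%. For dexamethasone peaks it was 96.3%, 82.9%, 71.3% and 63.1%. In each list the stronger step had the higher matched share, with intervals apart.

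**Figure D1:**
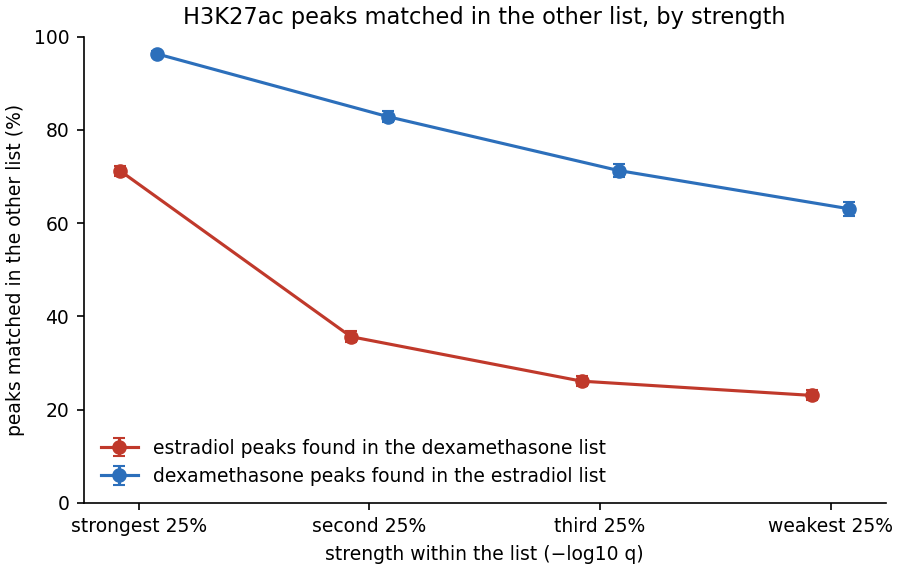
Share of H3K27ac peaks that overlap a peak of the other list by at least 1 bp (y axis, percent) against strength within the list in steps of 25% by −log10 q (x axis, strongest at left), with estradiol peaks in red, dexamethasone peaks in blue and 95% Clopper-Pearson intervals as bars. The estradiol line runs between 71.2% and 23.04% and the dexamethasone line between 96.3% and 63.1%.

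The counts moved with list length and with the joining distance. With the estradiol list cut to the 15192 peaks of the dexamethasone list, the estradiol-only regions numbered 7922 and the dexamethasone-only regions 5009, beside 7017 shared regions. Joining peaks within 1 kb of each other instead left 9177 estradiol-only and 1175 dexamethasone-only regions. The estradiol-only class stayed the larger of both under each of these settings.

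Single-hormone regions were narrow and shared regions were broad. A shared region spans all the peaks joined in it, so it is at least as wide as each of them. Every single-hormone region was 1 peak. A wider peak also has more room to overlap a peak of the other list. The part of the joining rule in this contrast was not tested. The median width was 523 bp in estradiol-only regions (interquartile range 368 to 782, widest 11534 bp). It was 353 bp in dexamethasone-only regions (266 to 514, widest 3335 bp) and 1296 bp in shared regions (805 to 2170, widest 30759 bp). Regions over 2000 bp numbered 214 among estradiol-only regions (1.47%), 12 among dexamethasone-only regions (0.366%) and 2431 among shared regions (28.3%). Shared regions therefore covered the most sequence, 16037 kb, beside 9461 kb in estradiol-only and 1445 kb in dexamethasone-only regions. Peak width also moves with the library, because the shortest peak in each list equals its estimated fragment length, which was 273 bp with estradiol and 232 bp with dexamethasone. The part of this gap in the width difference was not tested. The difference in median width between estradiol-only and dexamethasone-only regions, 170 bp, turned to −34 bp when the estradiol-only regions were limited to those absent from the combination list and the dexamethasone-only regions to those present in it, a setting added after the data had been seen.

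Single-hormone regions also ranked below shared regions in their own lists. The pileup, the authors' fragment coverage at the summit, was turned into a percentile within each list, with 100 as the highest. Estradiol-only regions had a median percentile of 40.3 in the estradiol list (20.5 to 61.6), where shared regions had 73.3. Dexamethasone-only regions had a median of 21.7 in the dexamethasone list (7.71 to 40.6), where shared regions had 62.7. The top 10% of each list by pileup held 249 estradiol-only regions (1.71% of the class) and 18 dexamethasone-only regions (0.548%). Both single-hormone classes thus ranked below shared regions, and the dexamethasone-only class had the lower median. Estradiol-only regions held 14571 of the 23888 estradiol peaks, and dexamethasone-only regions 3283 of the 15192 dexamethasone peaks. A class that fills more of its list has less room to lie low in it. A shared region with several peaks took the highest of their percentiles. The part of class size and of this choice in the medians was not tested.

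**Figure D2:**
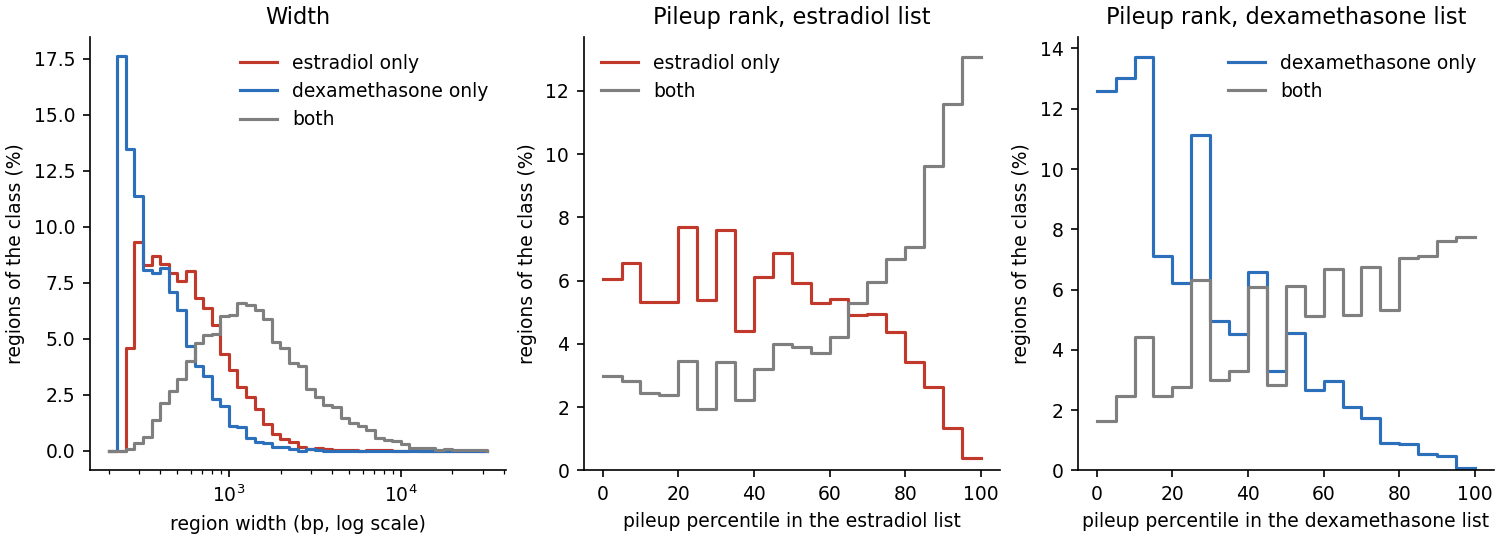
Histograms of region width (left, bp on a log scale) and of pileup percentile within the estradiol list (middle) and the dexamethasone list (right), with the percent of each class on the y axis and estradiol-only regions in red, dexamethasone-only regions in blue and shared regions in grey. Median widths were 523, 353 and 1296 bp. Dexamethasone-only regions peak at low percentiles and shared regions at high ones. Estradiol-only regions are spread broadly over the low and middle percentiles and thin out at high ones.

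The peak calls inside shared regions differed between the lists. Shared regions held 1.08 estradiol peaks and 1.39 dexamethasone peaks on average. More than 1 estradiol peak lay in 584 of them (6.80%) and more than 1 dexamethasone peak in 2262 (26.3%). Estradiol peaks spanned 14710 kb of the shared regions and dexamethasone peaks 10945 kb, and the estradiol span was the larger in 75.04% of the regions. Shared regions thus held several dexamethasone peaks more often than several estradiol peaks, although most held 1 dexamethasone peak. The part of library depth and duplication in this difference was not tested.

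Dexamethasone-only regions often sat beside estradiol peaks. A peak of the other list lay within 1 kb of 1889 estradiol-only regions (12.96%, 12.4 to 13.5) and of 1396 dexamethasone-only regions (42.5%, 40.8 to 44.2). Within 10 kb the shares were 27.2% of estradiol-only regions and 68.5% of dexamethasone-only regions. The list searched is longer for the dexamethasone-only regions, and its part in this difference was not tested. The remaining 1887 dexamethasone-only regions lay over 1 kb from any estradiol peak.

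The vehicle and combination lists placed the single-hormone regions among the other treatments. Of estradiol-only regions, 8999 (61.8%, 61.0 to 62.5) were also in the vehicle list and 7521 (51.6%, 50.8 to 52.4) in the combination list. Of dexamethasone-only regions, 606 (18.5%, 17.1 to 19.8) were in the vehicle list and 1601 (48.8%, 47.0 to 50.5) in the combination list. The largest estradiol-only group, 5850 regions (40.1%), was present with vehicle and with the combination, that is, in every H3K27ac list but that of dexamethasone. The largest dexamethasone-only group, 1452 regions (44.2%), was in no other list, and 1225 (37.3%) were shared with the combination alone. Shared regions were mostly constitutive, with 92.4% in the vehicle list and 97.3% in the combination list.

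Receptor sites divided the classes. An ER site mapped with estradiol lay within 1 kb of 1181 estradiol-only regions (8.11%, 7.67 to 8.56) and of 110 dexamethasone-only regions (3.35%, 2.76 to 4.02), a ratio of 2.42 (1.997 to 2.93). A GR site mapped with dexamethasone lay within 1 kb of 119 estradiol-only regions (0.817%, 0.677 to 0.977) and of 337 dexamethasone-only regions (10.3%, 9.25 to 11.4), a ratio of 0.0796 (0.0648 to 0.0977). Over all merged regions the shares were 9.61% for ER and 4.72% for GR, and shared regions had 14.5% and 9.21%. The estradiol-only share of ER sites thus lay below the average of all regions, and the contrast in GR sites was the larger of both. Shared regions were broader, however, and in no width class was the estradiol-only ER share below the shared one. Up to 500 bp it was 6.25% against 5.43% of shared regions, and over 500 and up to 1000 bp 7.41% against 6.75%. Over 1000 and up to 2000 bp it was 12.0% against 9.75%, and over 2000 bp 52.8% against 30.8%. Most single-hormone regions had no site of either receptor nearby, as 91.4% of estradiol-only regions lacked both.

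Both contrasts were present within each width class up to 2000 bp. In regions up to 500 bp, GR sites lay by 0.818% of estradiol-only and 7.33% of dexamethasone-only regions. Over 500 and up to 1000 bp the GR shares were 0.847% of estradiol-only and 17.1% of dexamethasone-only regions, and over 1000 and up to 2000 bp they were 0.762% of estradiol-only and 23.7% of dexamethasone-only regions. The GR contrast was thus wider in the broader classes. ER sites lay by 6.25% of estradiol-only and 3.27% of dexamethasone-only regions up to 500 bp, a ratio of 1.91 (1.51 to 2.42). Over 1000 and up to 2000 bp they lay by 12.0% of estradiol-only and 2.54% of dexamethasone-only regions, a ratio of 4.71 (1.53 to 14.5). The broad estradiol-only regions were rich in ER, with a site at 113 of the 214 regions over 2000 bp (52.8%, 45.9 to 59.6). Of the 12 dexamethasone-only regions that broad, 6 had a GR site (50.0%, 21.1 to 78.9) and 0 had an ER site, which with 12 regions allows a share of up to 26.5%.

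**Figure D3:**
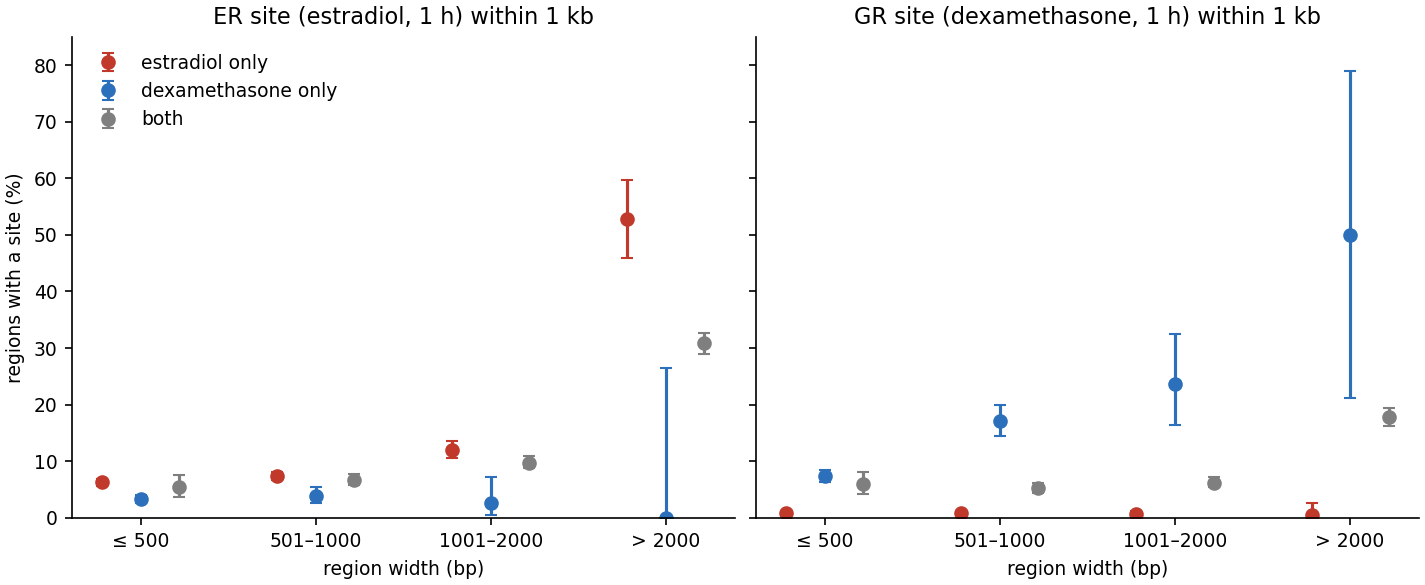
Percent of regions with a receptor site within 1 kb (y axis) by region width in bp (x axis), for ER sites with estradiol (left) and GR sites with dexamethasone (right), with estradiol-only regions in red, dexamethasone-only regions in blue, shared regions in grey and 95% Clopper-Pearson intervals as bars. GR shares of estradiol-only regions stay under 1% at every width while those of dexamethasone-only regions run between 7.33% and 50.0%.

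The ER ratio depended on how sites and regions were chosen. It was 6.60 when the site had to overlap the region, 1.03 (0.944 to 1.12) with sites within 10 kb, and 1.18 (0.989 to 1.41) with both lists cut to their stronger 50%. The GR ratio lay between 0.0303 and 0.251 under all settings tried.

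Strength went with GR sites within 1 kb of dexamethasone-only regions more than with ER sites within 1 kb of estradiol-only regions. Among dexamethasone-only regions of the strongest 25% of the dexamethasone list, 60 of 140 had a GR site (42.9%, 34.5 to 51.5). In the following steps of 25% the GR share was 13.8%, 8.90% and 6.42%. Among estradiol-only regions the ER share in the same steps of the estradiol list was 10.4%, then 6.95%, 7.61% and 8.68%. Dexamethasone-only regions with a GR site had a median pileup percentile of 37.2, against 21.7 without one. Estradiol-only regions with an ER site had a median of 34.9, against 42.1 without one. The GR-marked regions thus ranked above the rest of their class, and the ER-marked regions slightly below the rest of theirs.

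Presence in the other lists sorted the ER sites as well. Among the 1671 estradiol-only regions shared with the combination alone, 541 had an ER site (32.4%, 30.1 to 34.7). The ER share was 8.00% (7.17 to 8.89) where a region was in no other list, 4.43% (3.91 to 4.99) where it was in the vehicle and combination lists, and 2.19% (1.71 to 2.76) where it was in the vehicle list alone. Leaving out every region present with vehicle gave 15.3% ER in the 5572 estradiol-only regions that remained, against 3.03% in 2677 dexamethasone-only regions, a ratio of 5.06. This setting was added after the data had been seen.

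GR was seen at a minority of these estradiol regions when both hormones were given. Of the 1671 estradiol-only regions shared with the combination alone, 204 had a GR site of the combination list within 1 kb (12.2%), against 33 with a GR site of the dexamethasone list (1.98%). These 1671 regions were defined by a call with the combination and none with dexamethasone, and the part of that choice was not tested. Over all merged regions the GR shares were 4.61% with combination sites and 4.72% with dexamethasone sites. Over all estradiol-only regions they were 2.09% with combination sites and 0.817% with dexamethasone sites. Dexamethasone-only regions had GR at 8.32% with combination sites and 10.3% with dexamethasone sites. The ratio of estradiol-only to dexamethasone-only GR shares was 0.251 (0.214 to 0.294) with combination sites, nearer to 1 than with dexamethasone sites.

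Among dexamethasone-only regions the GR share was highest in those shared with the combination alone. Those shared with the combination alone had a GR site at 189 of 1225 (15.4%, 13.4 to 17.6), and those in no other list at 7.71% (6.39 to 9.21). Those in the vehicle and combination lists had one at 29 of 376 (7.71%, 5.23 to 10.9), and those shared with vehicle alone at 7 of 230 (3.04%, 1.23 to 6.17). GR sites lay by 7.81% (6.45 to 9.34) of dexamethasone-only regions within 1 kb of an estradiol peak, by 7.16% (5.52 to 9.10) of those from 1 to 10 kb away and by 16.1% (13.9 to 18.5) of those over 10 kb away. The higher share was thus in the last of these groups, with no step between the nearer ones.

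Counted from the receptor sites, most were either at shared acetylation or over 1 kb from any region. Of the 3560 ER sites with estradiol, 942 lay within 1 kb of an estradiol-only region (26.5%), 91 of a dexamethasone-only region (2.56%), 1439 of a shared region (40.4%) and 1294 of none (36.3%). A site can lie near more than 1 class. Of the 1815 GR sites with dexamethasone, 95 lay near an estradiol-only region (5.23%), 249 near a dexamethasone-only region (13.7%), 806 near a shared region (44.4%) and 791 near none (43.6%). Stronger sites leaned further to their own hormone. The strongest 25% of ER sites met estradiol-only regions at 40.0% (36.8 to 43.3) and the weakest 25% at 20% (17.4 to 22.8). The strongest 25% of GR sites met dexamethasone-only regions at 22.1% (18.3 to 26.2) and the weakest 25% at 10.4% (7.71 to 13.5).

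Sites bound by both receptors with the single hormones were mainly at shared acetylation. Of the 357 ER sites that overlapped a GR site, 290 lay within 1 kb of a shared region (81.2%, 76.8 to 85.1), 33 of an estradiol-only region (9.24%), 21 of a dexamethasone-only region (5.88%) and 40 of none (11.2%).

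Many sites lay beside the single-hormone peak and not under it. The receptor summit fell inside the region for 396 of the 942 ER sites near estradiol-only regions (42.0%, 38.9 to 45.3). It did so for 35 of the 249 GR sites near dexamethasone-only regions (14.1%, 9.99 to 19). At shared regions the summit was inside for 83.5% of ER sites and 82.0% of GR sites. Distances were taken from the receptor summit to the nearest acetylation summit in regions of the same class. Their median was 376 bp for ER by estradiol-only regions and 417 bp for GR by dexamethasone-only regions. Regions of other classes were not counted in either measure, so a summit outside may lie in a region of another class. Dexamethasone-only regions were also the narrower class, and the part of width in this share was not tested.

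At the 8593 shared regions the lists were set on the same footing by ranking the regions among themselves in each list. The ranks of estradiol and dexamethasone pileup had a Spearman rho of 0.509 across regions, which are not independent replicates and share 1 control library and the region's width. Width itself had a rho of 0.631 with the estradiol rank and 0.604 with the dexamethasone rank. At 463 shared regions with a GR site and no ER site, the estradiol percentile minus the dexamethasone percentile had a median of −15.8 (interquartile range −37.7 to −1.53), and 21.6% of them (17.9 to 25.6) ranked higher with estradiol. At 922 with an ER site and no GR site the median was 2.22, and 57.2% (53.9 to 60.4) ranked higher with estradiol. The 6880 with neither had a median of 1.52, and 52.7% (51.5 to 53.9) ranked higher with estradiol. Shared acetylation by GR sites thus ranked higher with dexamethasone, while that by ER sites leaned only a few points to estradiol.

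**Figure D4:**
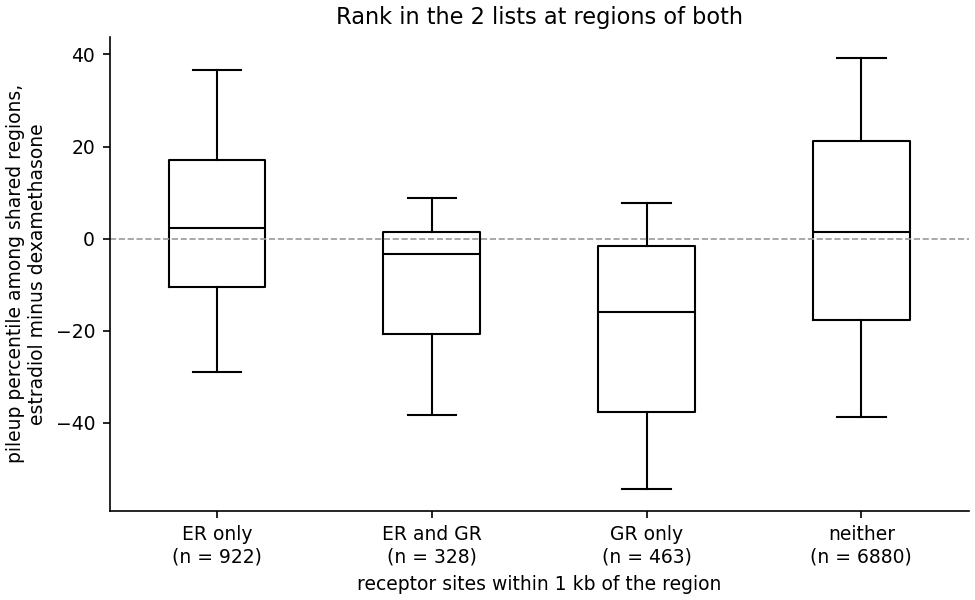
Pileup percentile among the 8593 shared regions with estradiol minus that with dexamethasone (y axis, percentage points) by receptor sites within 1 kb (x axis), with boxes from the lower to the upper quartile, the median as a line and whiskers from the 10th to the 90th percentile of regions. Medians were 2.22 for ER only, −3.38 for ER and GR, −15.8 for GR only and 1.52 for neither.

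The lean towards dexamethasone at GR sites was present at each width and the lean towards estradiol at ER sites was not. Among shared regions with GR alone, the share ranking higher with estradiol was 20.7%, 21.2%, 17.9% and 24.4% from the narrowest to the broadest of the 4 width classes. Among those with ER alone it was 30.8%, 42.6%, 55.6% and 63.1%, and among those with neither 28.9%, 51.7%, 61.9% and 46.3%. In the narrowest class these groups all leaned towards dexamethasone. The GR share there came from 29 regions (7.99 to 39.7), an interval that holds the 30.8% of ER alone and the 28.9% of neither. In regions over 2000 bp, the ER share of 63.1% (58.7 to 67.2) stood above the 46.3% (43.7 to 48.8) of regions with neither. The 328 shared regions with both receptors had a median difference of −3.38, and 35.7% (30.5 to 41.1) ranked higher with estradiol.

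The classes were spread unevenly over the chromosomes. Estradiol-only regions made up 74.8% of merged regions on chromosome 16, 71.0% on 19 and 68.9% on 22, and 39.4% on chromosome 4. Dexamethasone-only regions made up 2.44% on chromosome 16, 2.76% on 19 and 3.04% on 22, against 24.3% on chromosome 4, 21.9% on 13 and 20.5% on 18. Chromosomes 16, 19 and 22 are gene-dense and chromosomes 4, 13 and 18 gene-poor. Chromosomes 16, 19 and 22 together held 2173 estradiol-only regions (14.9%, 14.3 to 15.5), 82 dexamethasone-only regions (2.50%, 1.99 to 3.09) and 770 shared regions (8.96%, 8.37 to 9.58). This set was chosen because earlier results of these data showed it to differ between the lists, so its contrast is no independent finding. Outside the set, chromosome 17 had 65.8% estradiol-only and 4.72% dexamethasone-only regions, and chromosome X 60.4% and 12.6%.

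**Figure D5:**
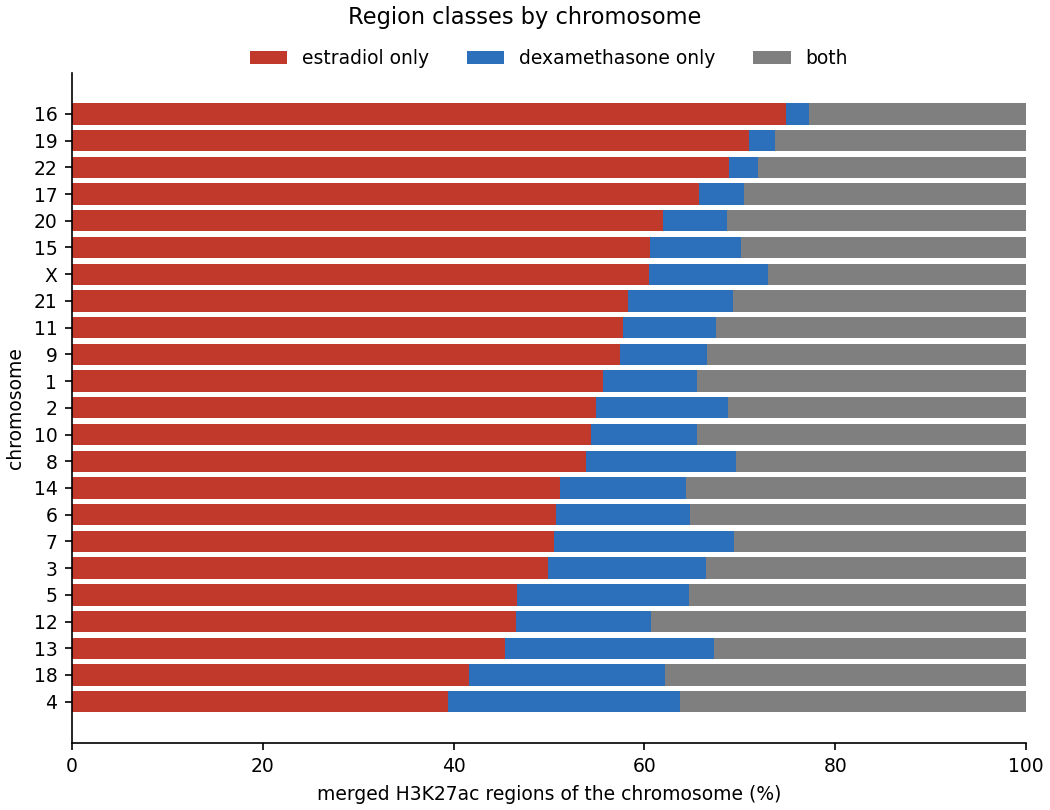
Percent of merged regions (x axis) on each chromosome (y axis, ordered by the estradiol-only share) that were estradiol only (red), dexamethasone only (blue) or shared (grey). The estradiol-only share runs between 74.8% on chromosome 16 and 39.4% on chromosome 4, with the dexamethasone-only share running the other way.

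The lists as wholes differed in the same manner. Chromosomes 16, 19 and 22 held 12.4% (12.0 to 12.8) of estradiol peaks, 8.04% (7.62 to 8.49) of dexamethasone peaks, 10.8% of combination peaks and 11.9% of vehicle peaks. There were 34.6 dexamethasone peaks per 100 estradiol peaks on chromosome 16 and 89.2 on chromosome 4. For combination peaks the same figures were 75.1 and 98.8. At shared regions, 71.0% (67.7 to 74.2) ranked higher with estradiol on these 3 chromosomes and 48.9% (47.7 to 50.0) elsewhere. The chromosome pattern was thus in the whole dexamethasone list and in shared regions too, beyond the single-hormone calls. Hormone treatment and the properties of the single dexamethasone library cannot be told apart here. Outside chromosomes 16, 19 and 22, ER sites lay by 8.26% of estradiol-only and 3.31% of dexamethasone-only regions, and GR sites by 0.823% of estradiol-only and 10.0% of dexamethasone-only regions.

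The strongest estradiol-only regions were broad and all carried ER sites. They were chosen as the 10 with the highest −log10 q of their strongest peak, and they are given by hg19 position because gene names were not used here. All 10 had an ER site with estradiol and 0 had a GR site with dexamethasone within 1 kb, while 9 had a GR site with the combination. Among all 214 estradiol-only regions over 2000 bp, 52.8% had an ER site with estradiol and 0.467% a GR site with dexamethasone. A GR site with the combination lay by 23.4% of them. All 10 were in the combination list and 6 in the vehicle list, and widths ran from 2123 to 8868 bp. Over all estradiol-only regions, 51.6% were in the combination list and 61.8% in the vehicle list. The strongest, chromosome 16 88985844 to 88994711, had a pileup of 265, an authors' fold enrichment of 41.4 over control and 4 ER sites. It was also acetylated with vehicle. Chromosome 2 233237998 to 233242603 had a pileup of 233 and a fold enrichment of 50.9, and was absent with vehicle. The other named regions absent from the vehicle list were chromosome 2 238466203 to 238469229, chromosome 16 9140550 to 9142672 and chromosome 11 69948532 to 69953591. Their fold enrichments with estradiol were 50.8, 57.9 and 38.4, and the last held 3 ER sites.

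The strongest dexamethasone-only regions were narrower and mostly carried GR sites. Of the 10, 8 had a GR site with dexamethasone and 1 had ER sites with estradiol within 1 kb. All 10 were in the combination list and 5 in the vehicle list, and widths ran from 699 to 3335 bp. Over all dexamethasone-only regions, 48.8% were in the combination list and 18.5% in the vehicle list. The strongest, chromosome 5 66563111 to 66565998, had a pileup of 131, a fold enrichment of 27.1 and 2 GR sites, and was absent with vehicle. Chromosome 5 16846479 to 16847446 had a pileup of 83, a fold enrichment of 33.6 and 1 GR site, and was present with vehicle. Chromosome 3 32009179 to 32010354, with a fold enrichment of 30.7, was the one with sites of both receptors, 2 of ER and 1 of GR. Chromosome 6 35696133 to 35696831, the narrowest at 699 bp, had a GR site of fold enrichment 41.6. The regions with no GR site were chromosome 13 83733660 to 83735854 and chromosome 2 214181463 to 214182794. When peaks within 1 kb were joined, 5 of these 10 regions kept their class, against 10 of 10 for the estradiol-only regions.

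The shared regions highest in both lists were broad domains present in every H3K27ac list. The first by rank, chromosome 18 43198686 to 43223097, had a pileup of 326 with estradiol and 228 with dexamethasone over 24412 bp, with 4 ER and 3 GR sites. Across these 10 regions, 8 had an ER site and 6 a GR site. Among all shared regions over 2000 bp, 30.8% had an ER site and 17.8% a GR site. Of all shared regions, 90.6% were in both the vehicle and the combination list. At the other extreme, chromosome 1 15236600 to 15242689 had a pileup of 248 with estradiol and 19 with dexamethasone, which is percentile 99.4 in the estradiol list and 5.21 in the dexamethasone list, with 1 ER site and no GR site nearby. Chromosome 5 168728189 to 168730092 had 143 with estradiol and 17 with dexamethasone, beside 1 ER site. The other 3 of the 5 regions with the widest difference towards estradiol had no ER or GR site of the single hormones within 1 kb. In the opposite direction, chromosome 13 83639557 to 83641408 had a pileup of 22 with estradiol and 101 with dexamethasone, percentiles 3.30 and 96.8 of their lists, beside 1 GR site and no ER site with estradiol. Of the 5 regions with the widest difference towards dexamethasone, 3 had a GR site and 2 had no site of either receptor. Such regions were called in both lists although their ranks lay far apart, so the single-hormone classes leave out some of the widest contrasts.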

How the data were processed

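Ishikawa cell ChIP-seq peak lists were analysed for H3K27ac, ER and GR, 1 library a group. Per the submitters' processing notes, Bowtie 1.1.2 and MACS2 2.1.0.20140616 were used with hg19. Per the file headers, MACS2 compared each library with a control at a p cutoff of 1e-10, keeping at most 1 tag per position, and all H3K27ac lists had a control of 14002417 usable tags. The control sample's labels name both input and IgG, so which was used is uncertain. Positions, widths and summits were deposited by the authors as hg19 coordinates. The deposited pileup is a signal, fragment coverage at the summit. The authors gave significance as −log10 of the p-value and q-value. The deposited fold enrichment is a ratio of pileup to local control. These peak values are the authors' and were ranked only within a list. Pileups of both lists printed side by side were not scaled for depth or fragment length. H3K27ac libraries had between 9034395 and 18508574 usable tags, per the file headers.

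Peaks of both lists were joined where they overlapped by at least 1 bp, and each region was classed by the lists in it. A receptor site belonged to a region within 1 kb of it. Shares carry exact Clopper-Pearson 95% intervals and ratios of shares carry 95% intervals on the log scale. No test was run between conditions. Ranks of shared regions were taken among those regions alone, so that both lists had equal length. Named regions are the 10 highest by −log10 q in each single-hormone class, the 10 shared regions whose lower pileup percentile was highest, and the shared regions with the widest rank difference in each direction. Alternatives changed the joining and overlap rules, list length, strength, width, chromosomes, receptor distance and receptor list. The members, lists and settings were chosen with earlier results of these data known. Gene names, gene lists, cell line markers and sequences were not used here, since the reference tables at hand follow another build than hg19. Python 3.11.15, numpy 2.4.6, pandas 2.3.3, scipy 1.17.1 and matplotlib 3.10.9 were used, and the overlap code was checked on simulated intervals.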

Additional observations from a re-analysis of the deposited data

How the results depend on the processing

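The main values were 39.0% of estradiol and 78.4% of dexamethasone peaks matched, an ER ratio of 2.42, a GR ratio of 0.0796, a median width difference (estradiol-only minus dexamethasone-only) of 170 bp and a difference of 12.4 percentage points in the share on chromosomes 16, 19 and 22. Peaks within 1 kb matched at 46.9% of estradiol and 87.6% of dexamethasone peaks, and overlap of 50% of the shorter peak at 37.8% and 75.3% of the same lists. Equal list lengths gave 47.9% of estradiol and 67.0% of dexamethasone peaks matched, 7922 estradiol-only and 5009 dexamethasone-only regions, ratios of 1.62 (ER) and 0.0570 (GR) and a width difference of 316 bp. The stronger 50% of both lists gave 36.4% of estradiol and 73.3% of dexamethasone peaks matched, 7591 estradiol-only, 2027 dexamethasone-only and 4204 shared regions, an ER ratio of 1.18 and a width difference of 213 bp. Joining within 1 kb gave 9177 estradiol-only and 1175 dexamethasone-only regions, a GR ratio of 0.0611, a width difference of 359 bp and 13.3 points. Single-hormone regions of the stronger 50% with the other list whole numbered 5562 (estradiol only) and 791 (dexamethasone only), with ratios of 1.63 (ER) and 0.0303 (GR), 231.5 bp and 13.7 points.

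The receptor ratios were 6.60 (ER) and 0.146 (GR) for overlapping sites, 1.03 (ER) and 0.153 (GR) within 10 kb, 1.74 (ER) and 0.251 (GR) with combination sites, and 1.95 (ER) and 0.0505 (GR) in regions of 500 to 1000 bp. The following settings were chosen after seeing the data. Over 1 kb from the other list there were 1887 dexamethasone-only regions, with ratios of 3.25 (ER) and 0.0574 (GR) and 13.5 points. Absent from the vehicle list there were 5572 estradiol-only regions, with ratios of 5.06 (ER) and 0.0990 (GR) and a width difference of 39 bp. Estradiol-only regions absent from the combination list numbered 7050 and dexamethasone-only regions present in it 1601, with ratios of 1.19 (ER) and 0.0479 (GR). Their width difference turned round to −34 bp, and the cause was not tested. Among shared regions of 500 to 1000 bp with an ER site and no GR site, 42.6% ranked higher with estradiol, against 57.2% at all widths, and the cause was not tested. Without chromosomes 16, 19 and 22 the ratios were 2.49 (ER) and 0.0820 (GR).

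No paired analysis was possible because each group is 1 library, and leaving out replicates does not apply. The lists hold calls and no reads, so depth just under the authors' cutoff, library and hormone cannot be told apart. The dexamethasone H3K27ac library had the fewest usable tags and the most duplicates of the H3K27ac libraries. Receptor sites at 1 h need not be those at 8 h.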

Other observations

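In windows of 1 Mb, estradiol-only regions outnumbered dexamethasone-only regions in 1833 of the 2346 windows and the reverse held in 356 (15.2%), with 157 equal. Windows with at least 10 regions of a class held 8286 estradiol-only regions (56.9% of the class, in 473 windows) and 926 dexamethasone-only regions (28.2%, in 60 windows). Most dexamethasone-only regions, 2357 (71.8%), thus lay in windows with fewer. Among the 926, a GR site lay within 1 kb of 6.91% (5.36 to 8.74), against 11.6% (10.3 to 12.9) of those elsewhere. The window of chromosome 7 from 83000001 to 84000000 had 3 estradiol-only and 34 dexamethasone-only regions, with 27 shared ones and 2 GR sites. The window of chromosome 19 from 1000001 to 2000000 had 56 estradiol-only regions and 1 dexamethasone-only region.

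A cluster on chromosome 13 was singled out after its values were seen. Between 83619928 and 83744938 it held 18 dexamethasone-only regions, 3 shared regions and 0 estradiol-only regions. The shared regions had pileups of 21, 22 and 65 with estradiol and of 77, 101 and 137 with dexamethasone. These pileups were not scaled between the libraries, which differed in depth and fragment length. A GR site with dexamethasone at 83639229 to 83639656 had a fold enrichment of 62.8 and was number 17 of 1815 by −log10 q. No ER site with estradiol was listed there, but an ER site of the combination list at 83639475 to 83639629, with a fold enrichment of 8.87, overlapped that GR site.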
